A study of Homo sapiens with 4 samples.

Results

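The human genome encodes chromobox proteins of 2 kinds, HP1 proteins and Polycomb proteins, and 7 of these genes were described here in T24 cells, an established line from a human bladder carcinoma. They were chosen by gene symbol among the 60623 genes measured. The HP1 genes were CBX1 (HP1 beta), CBX3 (HP1 gamma) and CBX5 (HP1 alpha), and the Polycomb genes were CBX2, CBX6, CBX7 and CBX8. RNA was sequenced in 2 libraries of control T24 cells and 2 libraries of T24 cells that overexpressed CBX7. Both groups grew in RPMI medium with serum. For the overexpression, full-length CBX7 was carried in a pCDH-3xFLAG vector plasmid, and what the control cells carried is not given in the sources used here. The labels do not say whether libraries of a group came from separate cultures, so the p-values measure the spread between these libraries, which may be technical. Since bulk RNA was measured, fewer cells that express a gene and less of its RNA per cell cannot be told apart.

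Both kinds of protein bind methylated lysines of histone H3 through a chromodomain. HP1 proteins read trimethylated lysine 9, the mark of heterochromatin, and pair through a second domain, the chromoshadow domain. Polycomb CBX proteins read trimethylated lysine 27, the mark that the PRC2 complex writes, and bring canonical PRC1, a histone H2A ubiquitin ligase, to it. A canonical PRC1 complex holds a single CBX protein, so its Polycomb paralogs are alternatives for the same seat. The questions were which of these genes T24 cells used, how their shares shifted when CBX7 was forced, and whether the paralogs moved with it.

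The 4 libraries held between 20800910 and 25135488 expected counts (estimated reads per gene, which need not be whole), and all 7 genes passed the filter on low counts. A count of 0 allowed up to 3 counts, or 0.119 to 0.144 CPM (counts scaled by library size). The libraries differed by transcript length, CBX7 replicate 1 the most. Against control replicate 1, its median log2 ratio of CPM fell from 0.45 for genes of up to 1000 bases to -0.49 for genes over 8000 bases, whereas between the libraries numbered 2 these medians lay between -0.03 and 0.02. The control libraries differed the same way but less, since the medians of control replicate 1 against control replicate 2 went from 0.09 to -0.28. The chi-square per degree of freedom over genes was 59.8 between the CBX7 libraries and 6.49 between the control libraries, so no library repeated another. The keratins of T24 cells were abundant, with mean control TPM (a relative transcript level, per length) of 1207 for KRT7, 870 for KRT8 and 1114 for KRT18. Of the other urothelial markers, PPARG was at a mean of 24.5 TPM in control, FOXA1 at 7.41 TPM and KRT19 at 7.14 TPM. The basal keratins KRT5 and KRT14 were listed at 0 in all libraries, GATA3 was at 0.26 TPM in control, and the uroplakins were near 0, such as UPK2 at 0.04 TPM. Without a correction for length, all 7 urothelial markers that were tested had a positive log2 fold change with CBX7, with a median of 0.28. After a correction for length, chosen after seeing the data, the median was 0.18 and PPARG was at -0.03. KRT7 was at 1242 and 1173 CPM in control and at 1761 and 1174 CPM in CBX7 replicates 1 and 2. KRT19 was at 6.54 and 5.72 CPM in control and at 18.5 and 12.8 CPM with CBX7. None of the 7 was called by edgeR in the fit by condition alone. At an unadjusted p under 0.05 by edgeR there were 2 (KRT19 and GATA3), where 4.74% of all genes tested had one, and DESeq2 called 1 (KRT19), where it called 0.451% of genes. KRT19 went from 7.14 to 16.2 mean TPM (log2 fold change 1.35, adjusted p = 0.352 by edgeR). The summed TPM of these markers ranged from 3181 to 3280 in control and from 3384 to 3759 with CBX7. The mesenchymal markers VIM and CDH2 went the other way, with log2 fold changes of -0.19 and -0.23. Neither was called by DESeq2 or by edgeR in the fit by condition alone, and neither had an unadjusted p under 0.05 in that edgeR fit. An edgeR fit with other terms called VIM and KRT19. CDH1, the epithelial cadherin (E-cadherin), was near 0. The summed TPM of VIM, CDH2 and CDH1 ranged from 2782 to 2807 in control and from 2240 to 2281 with CBX7. The part of these markers in the results was not tested. Blood markers summed to at most 0.62 TPM and endothelial markers to at most 0.31 TPM in any library.

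In control T24 cells the HP1 genes were the most abundant by far. CBX3 led at 253.07 and 250.84 TPM in control replicates 1 and 2. CBX1 followed at 128.51 and 137.71 TPM, and CBX5 at 36.76 and 49.76 TPM. The ranges of these 3 genes did not overlap, and the ratio of mean TPM was 1.89 between CBX3 and CBX1 and 3.08 between CBX1 and CBX5.

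Among the Polycomb genes analysed, CBX6 stood highest in control cells, at 21.63 and 21.98 TPM. CBX8 was at 13.10 and 7.42 TPM and CBX2 at 7.13 and 7.93 TPM. These ranges overlapped, so CBX8 and CBX2 were not ordered. CBX7 was the lowest of all 7 genes, at 4.98 and 3.73 TPM, and mean CBX3 was 57.9 times higher. CBX2 stood 1.73 times above CBX7 in mean TPM, without overlap.

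**Figure D1:**
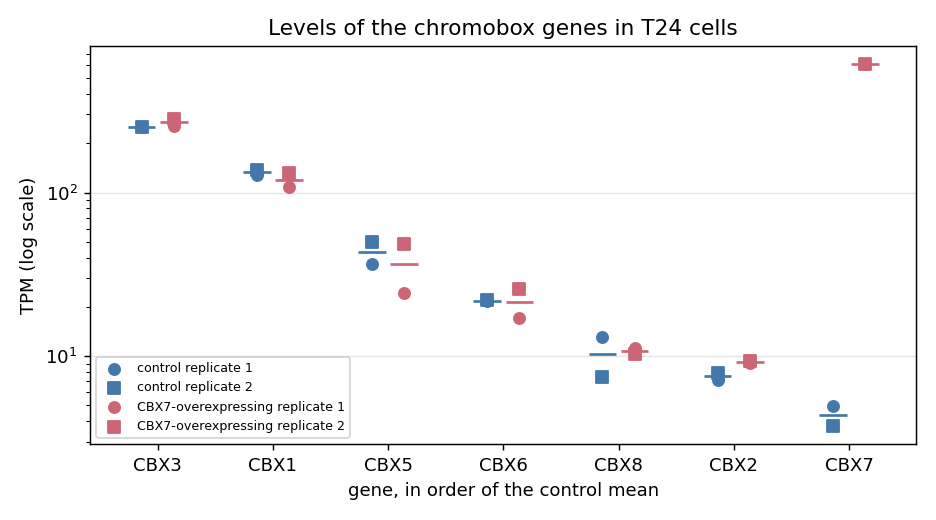
TPM on a log scale for each chromobox gene, ordered by the control mean. Points are single libraries of the control and CBX7-overexpressing groups and bars are means of 2 libraries. CBX7 moved from the lowest place in control cells to the highest in overexpressing cells, while the points of the other 6 genes stayed near one another.

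The level of CBX5 depended strongly on the length it was divided by. The deposited gene length of CBX5 is 1832 bases, the length of a short annotated transcript, yet the counts and TPM together implied 10786 and 10589 bases in the control libraries, close to the 11528 bases of CBX5-201. By counts alone CBX5 was the largest of the 7 genes in control cells, with 7347 and 8195 counts against 6335 and 5394 for CBX3. It took 36.7% ± 4.13 (SD, n = 2) of the 7 genes' counts but 9.14% ± 1.75 (SD, n = 2) of their TPM. The implied length of CBX8 was 1849 bases in control replicate 1 and 2865 bases in control replicate 2. Its CPM were 16.3 and 14.6 in these libraries, closer together than its TPM.

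CBX7 has the identifier ENSG00000100307 and lies at chr22:39120167-39152674 in GRCh38, on the minus strand. Control replicates 1 and 2 had 261.4 and 203.3 of its expected counts, against 42852 and 35641 when it was forced, and the groups were far apart. Its TPM were 610.09 and 607.25 in the overexpressing cells, a mean of 608.7 ± 2.01 (SD, n = 2) against 4.36 ± 0.884 (SD, n = 2). The log2 fold change on counts was 7.35 (SE 0.18, 95% interval 6.90 to 7.80), with an adjusted p of 0.000584 (edgeR, quasi-likelihood, Benjamini-Hochberg). CBX7 was the 1 called among the 7 chromobox genes, where 0.0202% of the 14862 genes tested were called. As CBX7 was the gene introduced, its call was set by the design and is no result about the family. Without CBX7 replicate 1 its log2 fold change was 7.28. Counts per gene cannot separate the endogenous transcript from the introduced one.

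The forced level set CBX7 above every other chromobox gene analysed. In the overexpressing cells its mean TPM was 2.27 times that of CBX3, the next gene. The order of the HP1 genes stayed as in control, with CBX3 at 254.14 and 282.55 TPM, CBX1 at 107.78 and 131.82 TPM, and CBX5 at 24.36 and 48.53 TPM. CBX5 and CBX6 overlapped there, since CBX6 was at 17.04 and 25.54 TPM. CBX8 at 11.13 and 10.30 TPM and CBX2 at 9.12 and 9.39 TPM were the lowest.

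Reads from so abundant a transcript could in principle have been counted for a paralog, so the coding sequences were compared. The longest run of bases that the coding sequence of CBX7-201 shared with any annotated transcript of another member was 15 bases, with CBX1 and with CBX2, and it was 13 bases with CBX5, 12 with CBX6 and CBX8 and 11 with CBX3. The pairs for CBX1, CBX5 and CBX2, the members with the longest runs between coding sequences, are shown with the shared run in capitals and up to 15 bases on either side, 5′ to 3′ on the coding strand, from GENCODE 29 on GRCh38. The run shared with CBX1 lies in exon 3 of both genes, and the printed stretch begins in exon 2 of both (chr22:39141397-39149793 and chr17:48076136-48076866, minus strand, introns included).
CBX7 at the CBX1 run: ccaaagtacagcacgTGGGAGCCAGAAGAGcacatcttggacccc
CBX1: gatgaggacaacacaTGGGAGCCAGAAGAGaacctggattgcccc
CBX7 at the CBX5 run: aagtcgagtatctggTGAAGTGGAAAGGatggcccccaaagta
CBX5: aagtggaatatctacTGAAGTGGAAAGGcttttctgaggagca
CBX7 at the CBX2 run: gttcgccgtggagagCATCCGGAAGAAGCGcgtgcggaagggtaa
CBX2: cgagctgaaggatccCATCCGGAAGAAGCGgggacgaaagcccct

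The CBX5 run lies in exon 2 of both genes, and the printed stretch ends in exon 3 of both (chr22:39141434-39149828 and chr12:54252222-54257550, minus strand). The CBX2 run lies in exon 1 of CBX7, where the printed stretch reaches exon 2 (chr22:39149828-39152415, minus strand), and in exon 5 of CBX2 (chr17:79783905-79783949, plus strand). Processed pseudogenes, which can share reads with their parent gene, carried few counts, with at most 4.02 over all libraries (CBX3P9). Among antisense genes, AL031846.2, which overlaps CBX7 by 3671 bases on the other strand, had 8.59 and 12.7 counts in control and 3.54 and 5.71 in the overexpressing libraries. The labels do not say whether counting used strand, so reads of CBX7 and of this gene may not be fully told apart.

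The makeup of the family RNA was mostly HP1 in control cells and mostly Polycomb when CBX7 was forced. Of the summed TPM of the 7 genes, CBX7 took 1.07% and 0.778% in the control libraries and 59.0% and 54.4% in the overexpressing libraries. The HP1 genes together took 89.9% and 91.4% in control and 37.4% and 41.5% with CBX7. The Polycomb genes took 9.32% ± 1.06 (SD, n = 2) in control and 60.6% ± 2.92 (SD, n = 2) with CBX7. The groups did not overlap in any of these shares, though with 2 libraries a group an exact two-sided permutation test cannot give a p under 0.333.

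By single gene, CBX3 went from 53.4% ± 1.47 to 24.96% ± 0.527 of the summed TPM and CBX1 from 28.2% ± 0.779 to 11.1% ± 0.984 (SD, n = 2 each). A rise of 1 member lowers every other share by construction, so the shares were also taken without CBX7. Of the other 6 genes, HP1 then took 91.5% ± 0.882 (SD, n = 2) in control and 91.1% ± 0.0690 (SD, n = 2) with CBX7, and the groups overlapped. By counts HP1 took 85.3% and 86.6% of these 6 in control and 83.97% and 84.9% with CBX7, without overlap. Shares of single genes are given with their overlap between groups, and none of these 6 genes was called in the fit by condition alone. For scale, 30.2% of all genes tested did not overlap between groups in CPM. The CBX3 share of these 6 was 55.0% and 52.7% in control and 60.0% and 55.6% with CBX7. The CBX1 share was 27.9% and 28.95% in control and 25.4% and 25.9% with CBX7. These CBX3 and CBX1 shares did not overlap between groups by TPM but did by counts. The CBX2 share did not overlap on either scale, at 1.55% and 1.67% of TPM in control and 2.15% and 1.85% with CBX7. The CBX5 share overlapped, at 7.99% and 10.5% of TPM in control and 5.75% and 9.55% with CBX7.

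**Figure D2:**
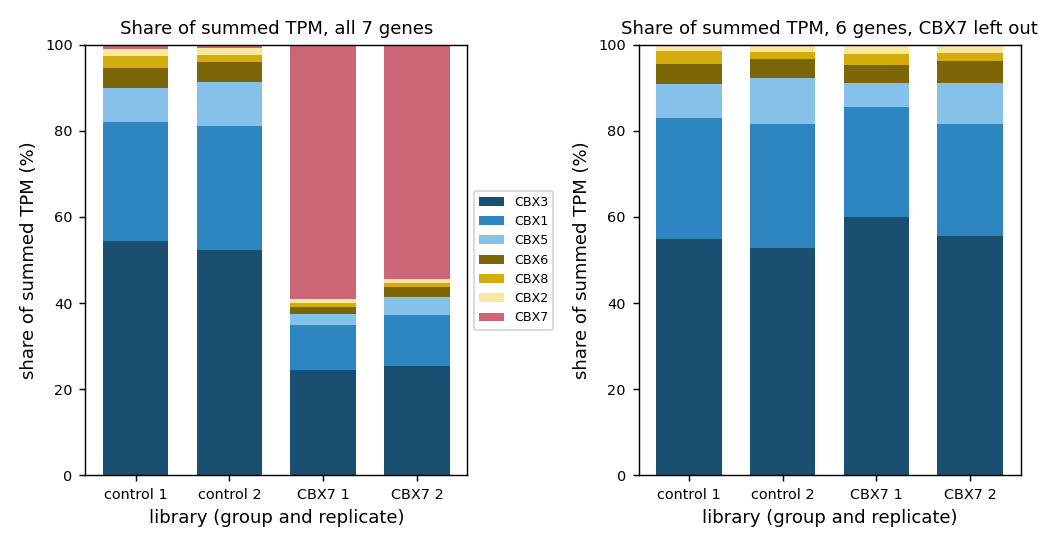
Share of summed TPM in each library, for all 7 chromobox genes (left) and for 6 genes with CBX7 left out (right). HP1 genes are in blue, Polycomb genes other than CBX7 in yellow and brown, and CBX7 in red. CBX7 filled 59.0% and 54.4% of the family in the overexpressing libraries, and HP1 genes filled 91.5% of the other 6 genes in control and 91.1% with CBX7 on average.

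Among the 4 Polycomb genes alone, CBX6 held 49.9% ± 5.20, CBX8 23.0% ± 6.998, CBX2 17.3% ± 2.89 and CBX7 9.86% ± 1.09 of summed TPM in control (SD, n = 2 each). With CBX7 forced, CBX7 held 93.7% ± 0.829 (SD, n = 2) and CBX6, the next, 3.27% ± 0.907 (SD, n = 2). Within the HP1 genes, CBX3 held 58.9% ± 2.31 in control and 63.4% ± 3.36 with CBX7, and CBX5 10.1% ± 1.81 and 8.395% ± 2.95 (SD, n = 2 each).

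These shares depended on the length assigned to CBX7. The deposited TPM rested on an implied length of 3382 and 3778 bases for CBX7 in the overexpressing libraries, whereas the coding sequence of CBX7-201 is 756 bases with its stop codon. If the introduced transcript carried the coding sequence alone, its level would be 3909 and 4446 on the TPM scale and its share of the 7 genes 90.0%. By counts, not divided by length, the share was 64.5% ± 3.76 (SD, n = 2). CBX7 held the largest share of the 7 genes in the overexpressing cells on all 3 scales.

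No change of the other chromobox genes passed the test in the fit by condition alone, whereas some fits with other terms or fewer libraries called CBX2, CBX3 or CBX5. Of the 6 genes other than CBX7, none had an adjusted p under 0.05 by edgeR or by DESeq2, and 1, CBX2, had an unadjusted p under 0.05 by edgeR, where 4.74% of all genes tested had one. The log2 fold changes of these 6 ran from -0.21 (CBX5) to 0.43 (CBX2) with a median of 0.10, beside a median of 0.00 and quartiles of -0.14 and 0.16 over all genes tested. In CPM, 4 of the 7 genes did not overlap between groups, 3 higher with CBX7 (CBX2, CBX3 and CBX7) and 1 lower (CBX1). Over all genes tested 30.2% did not overlap, 15.4% in the higher direction and 14.8% in the lower.

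CBX2, a Polycomb paralog with a basic stretch that compacts nucleosomes, came nearest to a change. It lies at chr17:79778132-79787983 (GRCh38, plus strand). Its counts were 477 and 482 in control and 725 and 619 with CBX7, or 19.99 and 22.96 CPM against 30.0 and 27.7 CPM, so both CBX7 libraries stood above both controls. The log2 fold change was 0.43 (SE 0.15, 95% interval 0.06 to 0.79), with an unadjusted p of 0.0284 and an adjusted p of 0.935 by edgeR. Of all genes tested, 7.33% had a larger log2 fold change. Without CBX7 replicate 1 it was 0.37 (adjusted p = 0.0863 by edgeR), and without CBX7 replicate 2 it was 0.48 (adjusted p = 0.000652 by edgeR). In this last fit 35.5% of all genes tested were called. The trend with length was corrected in each library in 2 ways. With the planned correction, on the length in the deposited table, the log2 fold change of CBX2 was 0.51 (SE 0.14, adjusted p = 0.431 by edgeR). With a correction on the implied length, chosen after seeing the data, it was 0.53 (SE 0.14, adjusted p = 0.344 by edgeR).

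CBX2 was also set beside genes of like length. Against control replicate 1, the log2 ratio of CPM of CBX2 in CBX7 replicate 1 was 0.57, where 2578 genes within 1.25 times its length and with a mean of at least 100 counts had a median of -0.19, and it lay at percentile 98.8 of them. Between the libraries numbered 2 it was 0.27 beside a median of 0.00, at percentile 94.6. Between libraries of 1 group CBX2 lay at percentile 91.2 for CBX7 replicate 1 against 2 and at 13.5 for control replicate 1 against 2. In absolute terms the difference was small, since mean CBX2 went from 7.53 ± 0.566 to 9.26 ± 0.191 TPM (SD, n = 2 each) while CBX7 stood at 608.7 TPM.

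CBX6, the most abundant Polycomb paralog analysed in control cells, had 96.2 and 93.3 CPM in control and 90.1 and 105.9 CPM with CBX7, and the groups overlapped. Its log2 fold change was 0.05 (SE 0.14, 95% interval -0.31 to 0.40). It turned to -0.074 without CBX7 replicate 2 and was 0.16 without CBX7 replicate 1. Corrected for the trend with implied length it was 0.22 (SE 0.12, adjusted p = 0.744 by edgeR). CBX8, which lies 4148 bases from CBX2 on the other strand, had 16.3 and 14.6 CPM in control and 19.2 and 15.4 CPM with CBX7. Its log2 fold change was 0.16 (SE 0.17, 95% interval -0.26 to 0.59), with 0.00 without CBX7 replicate 1 and 0.31 without CBX7 replicate 2 (adjusted p = 0.0686 by edgeR).

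Summed over CBX2, CBX6 and CBX8, the Polycomb level other than CBX7 was 41.9 and 37.3 TPM in control and 37.3 and 45.2 TPM with CBX7. The ratio of means was 1.04, and an exact two-sided permutation test gave p = 1, in a design that allows no p under 0.333. In CPM the sums were 132.5 and 130.9 in control and 139.3 and 149.0 with CBX7, a ratio of 1.09 without overlap (exact permutation p = 0.333, the smallest possible). The summed Polycomb level with CBX7 included went from 43.95 ± 4.09 to 649.9 ± 3.61 TPM (SD, n = 2 each), 14.8 times, and that of all 7 genes from 472.3 ± 10.0 to 1075 ± 57.8 TPM, 2.28 times.

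Of the HP1 genes, CBX1 (chr17:48070052-48101521, minus strand) had 195.3 and 198.1 CPM in control and 195.0 and 188.9 CPM with CBX7. The groups did not overlap, but by a margin far smaller than the SE, with a log2 fold change of -0.04 (SE 0.12, 95% interval -0.34 to 0.27). CBX3 (chr7:26201162-26213356, plus strand), the HP1 paralog found in active genes as well as heterochromatin, had 265.5 and 256.9 CPM in control and 310.6 and 269.7 CPM with CBX7. CBX7 replicate 1 was the highest, and the log2 fold change was 0.15 (SE 0.14, 95% interval -0.18 to 0.49). It was 0.05 without that library, 0.25 without CBX7 replicate 2 (adjusted p = 0.0349 by edgeR, in the fit that called 35.5% of genes), and 0.06 (SE 0.06) with the correction on implied length.

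CBX5 (chr12:54230940-54280133, minus strand) has the longest transcript of the 7 genes. It had 307.9 and 390.3 CPM in control and 224.2 and 378.0 CPM with CBX7, so CBX7 replicate 1 was the lowest and the groups overlapped. The log2 fold change was -0.21 (SE 0.27, 95% interval -0.89 to 0.47). It was 0.12 without CBX7 replicate 1 and -0.64 without CBX7 replicate 2 (adjusted p = 7.8e-09 by edgeR), in the fit that called 35.5% of genes. Between the libraries numbered 1 its log2 ratio was -0.46, beside a median of -0.50 over 218 genes of like length. Between the control libraries it was -0.34 beside a median of -0.29. Between those numbered 2 it was -0.05 beside a median of 0.02. With the planned correction on the table's length, which is 1832 bases for CBX5, the log2 fold change was -0.26 (SE 0.31). With the correction on implied length, chosen after seeing the data, it was 0.02 (SE 0.07, 95% interval -0.14 to 0.18).

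**Figure D3:**
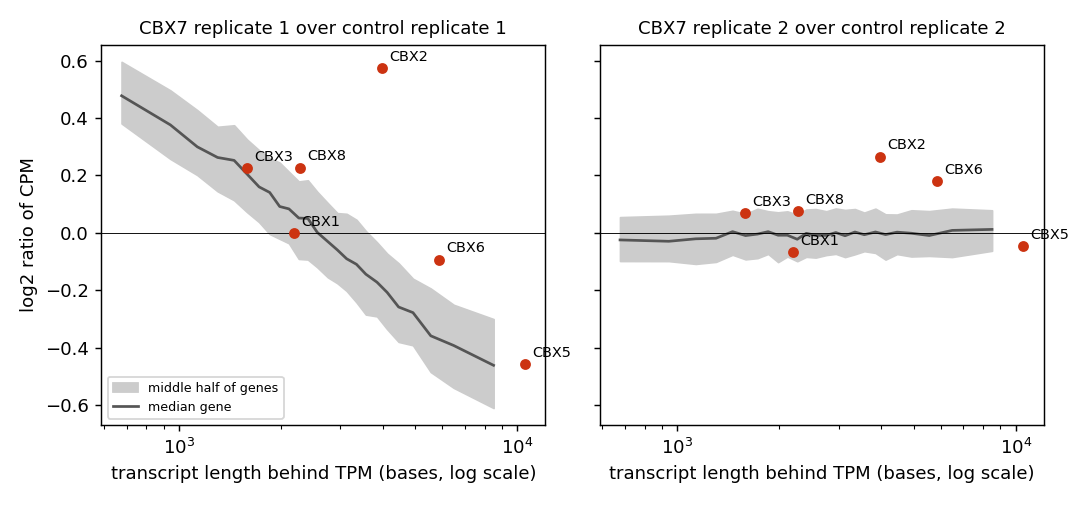
Log2 ratio of CPM between the CBX7 and control libraries numbered 1 (left) and 2 (right), against the transcript length that counts and TPM imply (bases, log scale). The line is the median gene and the band runs from the first to the third quartile of genes. CBX5 lies along the slope in the left panel, whereas CBX2 lies above the band in both panels, at 0.57 and 0.27.

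The HP1 sum was 418.3 and 438.3 TPM in control and 386.3 and 462.9 TPM with CBX7. The log2 difference was -0.02, and an exact two-sided permutation test gave p = 1, again with none under 0.333 possible. In the fit without a length correction, the upper end of the 95% interval, as a fold change, was 1.20 for CBX1, 1.40 for CBX3, 1.38 for CBX5, 1.32 for CBX6, 1.51 for CBX8 and 1.73 for CBX2, beside 224 for CBX7 itself. The lowest end was 0.538, for CBX5. With the correction on implied length the upper end on the log2 scale was 0.88 for CBX2 and 0.51 for CBX6, above the 0.79 and 0.40 without it.

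**Figure D4:**
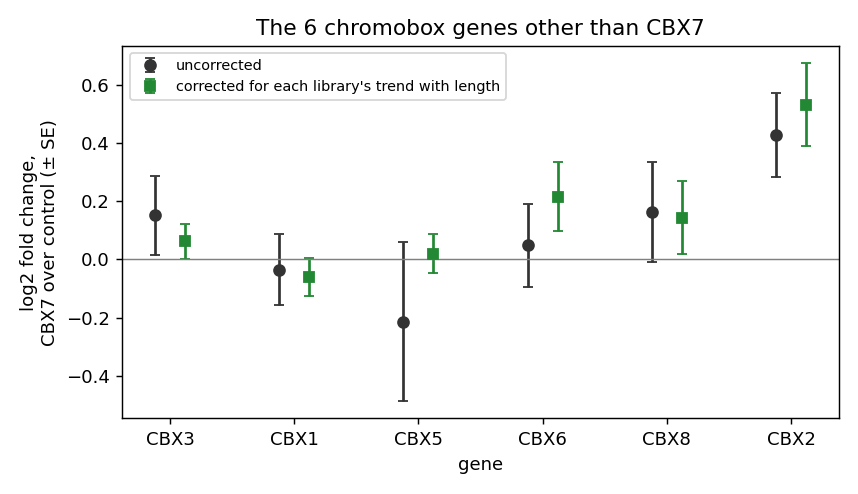
Log2 fold change (CBX7-overexpressing over control) of the 6 other chromobox genes with its SE, from edgeR's quasi-likelihood fit without a correction (black circles) and after the correction on implied length (green squares). CBX5 was at -0.21 and 0.02 in these fits, and CBX2 was the highest in both fits, at 0.43 and 0.53.

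The genes around the members on the chromosome did not pass the test either. HNRNPA2B1, an RNA-binding protein gene that overlaps CBX3 by 368 bases on the other strand, had a log2 fold change of 0.08 (SE 0.13), beside 0.15 for CBX3. HNRNPA1, a related gene 59 bases from CBX5 on the other strand, had 0.04 (SE 0.15). SNX11, a sorting nexin gene that starts 1835 bases from CBX1 on the other strand, had 0.14 (SE 0.14), and NFE2L1, a transcription factor gene 8564 bases beyond its other end, had -0.15 (SE 0.13). The genes tested on either side of CBX7 were PDGFB, a platelet-derived growth factor chain, at 0.37 (SE 0.14, adjusted p = 0.951 by edgeR) and APOBEC3G, a cytidine deaminase, at 0.20 (SE 0.25). NFE2L3, a transcription factor gene 14036 bases from CBX3, was at 0.38 (SE 0.13, adjusted p = 0.916 by edgeR), the largest change relative to its SE among the neighbours tested that are no members.

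The partners of these proteins were measured alongside. Tested were 9 PRC1 partners, 11 PRC2 genes, 14 HP1 partners and H3K9 methylation genes, 17 of 18 other chromodomain readers and 3 DNA methyltransferases. None passed an adjusted p of 0.05 by DESeq2 or by edgeR in the fit by condition alone, whereas an edgeR fit with other terms called CHD7. At an unadjusted p under 0.05 by edgeR there was 1, the chromodomain helicase CHD7, of 52 genes tested in these lists (1.92%), where 4.74% of all genes tested had one. SUV39H1 and SUV39H2 stand in 2 of the lists. The median log2 fold changes of these lists were -0.07, -0.02, -0.05, -0.12 and 0.01, beside 0.00 over all genes tested. Corrected on implied length, the medians were -0.03, -0.02, -0.01, -0.04 and 0.10.

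Within canonical PRC1, the ubiquitin ligase subunit RING1 was highest in log2 fold change at 0.29 (SE 0.18) and the Polyhomeotic gene PHC1 lowest at -0.22 (SE 0.21). Within PRC2 the range ran from the methyltransferase EZH1 at -0.23 (SE 0.15) to the accessory subunit MTF2 at 0.08 (SE 0.13). Among the HP1 partners, the histone H3.3 chaperone DAXX was highest at 0.17 (SE 0.14), and INCENP, of the chromosomal passenger complex, lowest at -0.17 (SE 0.19). Among the DNA methyltransferases DNMT3A was at 0.22 (SE 0.18) and DNMT1 at -0.18 (SE 0.14).

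Among the other chromodomain readers, CHD7 was highest in log2 fold change at 1.01 (SE 0.29, adjusted p = 0.752 by edgeR) and CDYL2 lowest at -0.43 (SE 0.24). Corrected on implied length, CHD7 was at 1.12 and CDYL2 at -0.23. CHD7 was low in level, with a mean of 2.68 TPM in control and 3.31 TPM with CBX7. In CPM it rose more, from 6.54 and 8.57 in control to 11.6 and 18.9 with CBX7. The cause of this gap between the scales was not tested.

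The genes whose pattern over the 4 libraries lay nearest to that of CBX7 were AC008012.1, EEF1A2 and JAG2, among 12181 genes averaging 50 counts or more. The measure was the root mean square difference of centred log2 CPM after adding 0.5 CPM, at 2.01 for EEF1A2 and 2.12 for JAG2. That of AC008012.1, whose control libraries hold no counts, is set by the added 0.5 CPM and is not given. JAG2, a Notch ligand, was at 2.22 and 2.00 CPM in control and 23.1 and 19.5 CPM with CBX7. EEF1A2, a translation elongation factor, was at 46.4 and 39.2 CPM in control and 491 and 352 CPM with CBX7. These 2 genes and CBX7 were the 3 that passed the adjusted p of 0.05 by edgeR. AC008012.1 had no counts in control and 6.79 and 4.74 CPM with CBX7.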

How the data were processed

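Total RNA of T24 cells was sequenced on an Illumina HiSeq instrument. The submitters' processing notes name cutadapt 1.9.1, HISAT2 2.0.1, HTSeq 0.6.1, DESeq2 and build hg19. The authors deposited an expected count per gene and library (88.2% to 88.9% of values whole within 1e-06, zeros included, and 66.9% to 68.6% of those above 0), and which tool gave values that are not whole is not given in the sources used here. The authors also deposited a TPM value per gene and library, its group means, a gene length, and their own comparison (fold, its log2, p-value, adjusted p-value), of which the means and comparison were not used.

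After rounding, a filterByExpr filter and TMM scaling, counts were compared in edgeR 4.0.16 (R 4.3.3, quasi-likelihood, older form) by condition alone, and p-values were adjusted over 14862 genes by Benjamini and Hochberg. SEs are the log2 fold change over the square root of F, and 95% intervals use the t quantile of that fit. CPM are TMM-scaled, except for the limit that a count of 0 allows, which uses the library's total count. That limit covers counting error only. The test was also run on counts simulated with the same dispersion for every gene. That setting differs from these data, so it does not show how the test behaves here. Lists were described by counts and medians, without a set test. Sums were compared by an exact two-sided permutation test.

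The length behind each TPM was estimated from count over TPM, calibrated per library on 427 to 459 genes with 1 annotated transcript (median error 1.02% to 1.25%). The correction for length fitted a loess of log2 CPM on the table's length (planned) or on that implied length (added after seeing the data). The coding length of CBX7 came from GENCODE 29, as did coordinates and sequences (GRCh38), and 58457 of 60623 identifiers (96.4%) matched. The table itself carries no coordinates.

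Members and lists were chosen with earlier results of these data known. Named genes were all members, the highest and lowest log2 fold change of each list of partners, genes beside members, and the 3 patterns nearest to CBX7. Cell type markers were named after their values were seen. Shares are of the 7 genes' sum and not of every chromobox gene, since a further paralog is not reported here. Alternatives were scaling by upper quartile or by DESeq2's size factors, filters of none or of 10 counts in each library, DESeq2 1.42.0, the newer quasi-likelihood form, a replicate block, length corrections, other scales of the shares, and each library left out.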

Additional observations from a re-analysis of the deposited data

How the results depend on the processing

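The CBX7 rise passed the threshold under every alternative run, with log2 fold changes of 7.26 to 7.44. Of the other 6 genes, none passed under the other scalings, filters, DESeq2 or the newer form. The number of genes called was 3 in the fit reported and 3 with either other scaling, with at least 10 counts in every library and with the newer form. It was 4 with the planned length correction, 34 with the correction on implied length (added after seeing the data), 67 with DESeq2, of which 7.46% were lower, and 265 with no filter, of which 17.7% were lower. Leaving out 1 library gave 45 to 5491 called genes and 1 to 4 called members, the highest of both without CBX7 replicate 2, where the lone remaining library is assumed to vary like the others.

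With the replicate number as a block, 361 genes were called (25.2% lower) and 1 member. The block with the planned length correction gave 689 genes (4.64% of those tested, 31.5% of them lower) and 3 members, with CBX2 at 0.51 (adjusted p = 0.00264) and CBX5 at -0.33 (adjusted p = 0.0164) by edgeR. The block with the correction on implied length gave 365 genes (2.46% of those tested, 17.3% of them lower) and 2 members, CBX7 and CBX2 (0.52, adjusted p = 0.0472), and among the lists it called CHD7 (adjusted p = 0.000876), KRT19 (0.00067) and VIM (0.0147). Same-numbered libraries deviated together (correlation 0.385 over 14862 genes and 0.624 over the 11077 averaging 100 counts or more), but no label says that a number marks a shared batch, so the block is not the reported fit.

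CBX5 turned to 0.0204 with the correction on implied length and to 0.0198 with the block added, where the planned correction used the table's length of 1832 bases. Leaving out 1 library gave -0.64 to 0.12 for CBX5 and -0.074 to 0.16 for CBX6. The log2 difference of the HP1 sum ranged from -0.15 to 0.11 and that of the other Polycomb genes from -0.084 to 0.19, both with a change of sign whose cause was not tested.

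By counts, the shares with CBX7 were 64.5% for CBX7, 30.0% for HP1 and 70.0% for Polycomb, and in control 85.01% for HP1 and 14.99% for Polycomb. With the coding length for CBX7 they were 90.0%, 9.13% and 90.9%, and with CBX7 left out of the sum, HP1 took 91.1% and Polycomb 8.85%. Leaving out 1 library moved the CBX7 share between 54.4% and 59.0% in overexpressing cells and between 0.778% and 1.07% in control, the HP1 share between 37.4% and 41.5% and between 89.9% and 91.4%, and the Polycomb share between 58.5% and 62.6% and between 8.57% and 10.1%. Depth limits CBX7 most in control cells, where 203.3 counts carry a counting error of 7.01%.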
